A study of Mus musculus with 8 samples.

Results

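The opioid genes of the mouse comprise 3 peptide precursors, Pdyn, Penk and Pnoc, and 4 receptors, Oprk1, Oprm1, Oprd1 and Oprl1. All 7 had probe sets on the arrays, which compared RNA pulled down with the ribosomes of hypocretin neurons and RNA of the unbound fraction. Members were taken by gene symbol, from every probe set of the array that carries that single symbol, which gave 13 of 45101 probe sets. Of these 13, 5 passed the filter on low values and were tested among 17865 probe sets. They stand for 4 of the 7 genes, among 10398 genes tested.

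The samples came from adult BAC transgenic mice of the line Hcrt JD218, on a mixed Fvb and c57/bl6j background, aged 6 to 12 weeks and of both sexes. Thalamus and hypothalamus were dissected together, and 5 mice were pooled per sample. Tagged ribosomes were pulled down by translating ribosome affinity purification, which gave 4 immunoprecipitates, and the 4 unbound fractions of the same preparations stood for the tissue. Every mouse carried the transgene of this 1 line, the line is named for Hcrt, and no precipitate from mice without it was among the arrays. Each of the 8 samples was hybridised to its own Affymetrix array after amplification from 20 ng of RNA.

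Opioid peptides are cut from large precursor proteins in the secretory pathway and are stored in dense-core vesicles. Prodynorphin (Pdyn) gives the dynorphins, which act mainly on the kappa receptor (Oprk1). Proenkephalin (Penk) gives the enkephalins, which act on the delta (Oprd1) and mu (Oprm1) receptors. Prepronociceptin (Pnoc) gives nociceptin, the ligand of Oprl1. All 4 receptors couple to inhibitory G proteins, which lower cyclic AMP, open inwardly rectifying potassium channels and close presynaptic calcium channels. Hypocretin neurons of the lateral hypothalamus, which promote wakefulness, are known to release dynorphin together with hypocretin.

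Of the 4 tested genes, Pdyn was higher in the immunoprecipitate, Penk and Pnoc were lower, and Oprl1 did not pass the test. Among all tested genes 4.74% were called higher and 44.2% lower at a limma adjusted p under 0.05 and at least 2-fold, so that 2 lower genes of 4 is close to the background. In either direction 49% were called, against 3 of 4 here. By probe set, 1 of the 5 tested was higher (4.88% of all), 2 were lower (45.1%) and 3 were called in all (50%). The scale sets these shares. Centring each array on its median gave 20.4% of genes higher and 19.6% lower. Quantile normalization gave 16.5% and 20.5%, and the poly-A spike controls 0.673% and 94.5%. The median tested gene stood at -0.85 on the log2 scale (immunoprecipitate minus unbound). Median centring moved the median of the tested probe sets from -0.87 to 0.05, quantile normalization to -0.04 and the poly-A controls to -2.84. A difference between fractions mixes the cells that carry the tag with how far a transcript sits on ribosomes. In bulk samples, fewer cells of a type and less RNA per cell cannot be told apart.

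The minimum for a measured signal was a linear value of 50, which is 5.64 on the log2 scale. It was reached by 33.6% to 34.8% of probe sets on the immunoprecipitate arrays and by 40.5% to 40.9% on the unbound arrays. Of 6 tested markers of hypocretin neurons 5 were higher, against 4.74% of all genes. The list holds Hcrt, for which the line is named. All markers given here were chosen with earlier results of these data known, so their counts are no independent check of the pulldown. Slc17a6, a vesicular glutamate transporter gene, gave -0.69 on the log2 scale (limma adjusted p = 0.025, under 2-fold). It lay below its unbound fraction in 4 of 4 preparations and was called lower on the poly-A controls. Hcrt itself, the precursor gene of the hypocretins, rose by 5.02 ± 0.25 (SE) on the log2 scale (limma adjusted p = 6.5e-07). Of 45 tested markers of GABAergic, other peptidergic, thalamic and habenular neurons, glia and vessels, 42 were lower, against 44.2% of all genes. Of these markers 0 were higher, and Pomc, Calb2 and Pou4f1 did not pass the test. Of the 42, 6 reached the minimum on 0 of 4 immunoprecipitate arrays and so could only be called lower, and without them 36 of 39 were lower. The 45 markers gave 30 lower and 1 higher with median centring, 33 and 0 with quantile normalization, and 45 and 0 with the poly-A controls.

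**Figure D1:**
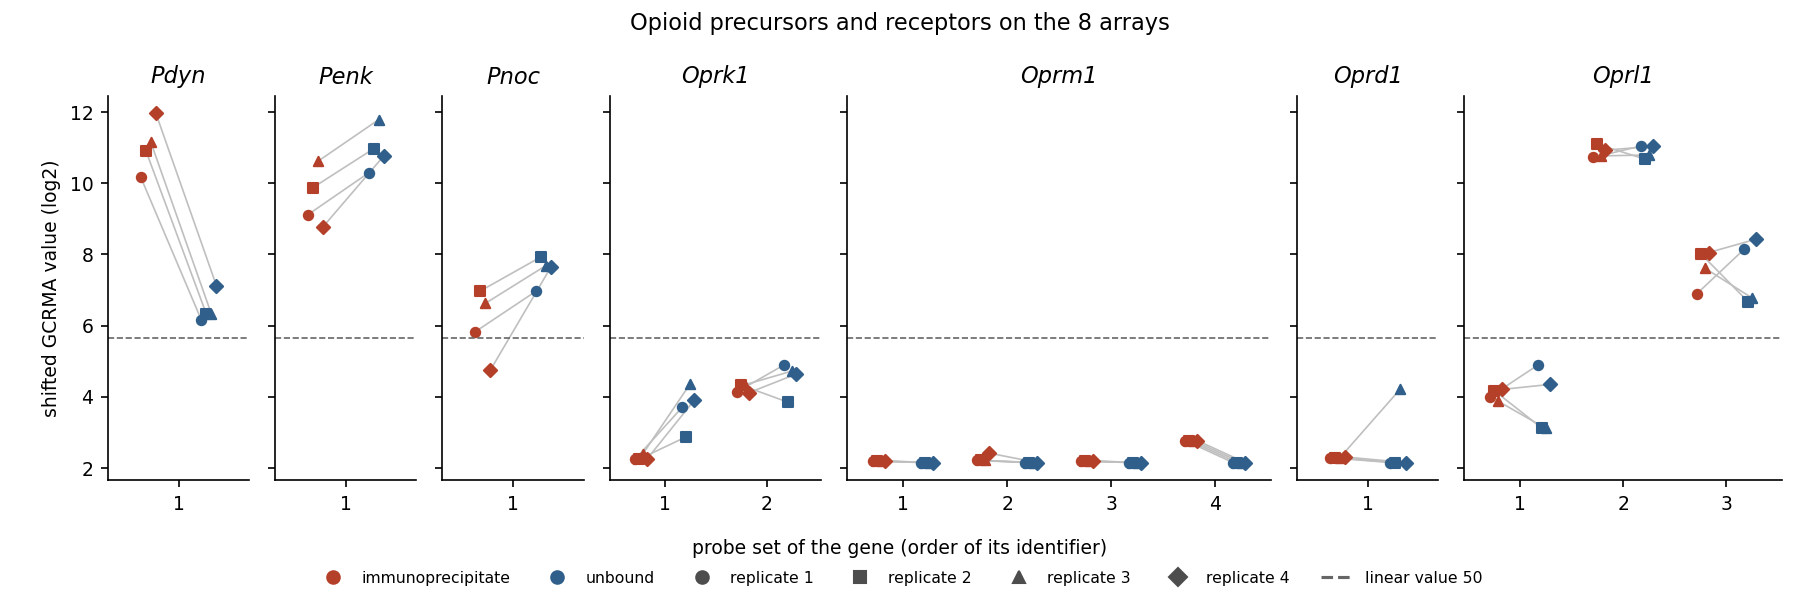
Shifted GCRMA values (log2, vertical axis) of every probe set of the 7 opioid genes on the 8 arrays, with immunoprecipitates in red, unbound fractions in blue, marker shapes for the replicate and a grey line joining the fractions of 1 preparation. Above the dashed line at a linear value of 50, Pdyn is the gene whose fractions lie apart with the immunoprecipitate higher, from 10.17 to 11.96 against 6.16 to 7.12, while all probe sets of Oprk1, Oprm1 and Oprd1 lie under that line.

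The promoter of Pdyn is shown because Pdyn is the member with the largest difference between the fractions. The window runs from 250 bases before to 50 bases after 1 of the 2 starts listed for the gene by RefSeq, on the minus strand of GRCm38.p6 at chr2:129699889-129700188, and is written 5′ to 3′. Capitals mark TGACAAACA, the non-canonical AP-1 element known from the prodynorphin promoter, whose first base lies at position -166 from the start.
Pdyn: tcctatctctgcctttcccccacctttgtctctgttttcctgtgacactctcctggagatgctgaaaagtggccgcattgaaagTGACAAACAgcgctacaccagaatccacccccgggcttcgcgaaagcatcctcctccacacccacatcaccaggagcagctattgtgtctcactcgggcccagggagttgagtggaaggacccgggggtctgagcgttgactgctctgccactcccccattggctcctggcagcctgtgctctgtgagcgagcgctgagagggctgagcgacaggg

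Searched on both strands, these 9 letters were found in 110 of 32851 RefSeq promoter windows of 300 bases, or 0.335%. Windows were given for 4 of the 7 opioid genes, 9 in all, and the 1 above was the only window of these 9 that held the letters. Since the element was chosen as one known from the prodynorphin promoter, a match at Pdyn was foreseen and is no finding. A match describes the sequence and was not tested as a binding site. No value of the arrays bears on binding at this window.

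Pdyn, the dynorphin precursor, stood at 10.17, 10.92, 11.15 and 11.96 on the log2 scale in immunoprecipitate replicates 1 to 4 (probe set 1416266_at). In the unbound fractions it stood at 6.16, 6.33, 6.33 and 7.12. The groups did not overlap, and neither did those of 57.1% of the tested genes and 56.9% of the probe sets. Every array was above the minimum of 5.64, although the unbound values lay close to it. Pdyn was 23.7-fold higher in the immunoprecipitate, a difference of 4.56 ± 0.38 on the log2 scale (SE, n = 4 each, limma adjusted p = 9.9e-06).

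Within the 4 preparations the rise of Pdyn was 16.1-, 24.1-, 28.3- and 28.6-fold. Preparation 1 gave the smallest rise and held the lowest Pdyn value of each fraction, and preparation 4 held the highest of each. Pdyn had the 45th largest log2 fold change of the 17865 probe sets. The call held on each of the other scales, at 5.49 after median centring, 5.54 after quantile normalization and 2.60 on the poly-A controls (log2 fold changes).

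Set beside Hcrt, the gene whose name the transgene bears, Pdyn rose by a similar amount, though not in step. Hcrt stood at 15.10, 15.39, 15.43 and 15.50 on the log2 scale in immunoprecipitate replicates 1 to 4. In the unbound fractions it stood at 9.77, 10.10, 10.40 and 11.06, so that its fold fell as the unbound values rose. Whether so high a signal compressed the fold of Hcrt was not tested. The log2 fold change of Hcrt was 5.33, 5.29, 5.03 and 4.44 in preparations 1 to 4, and that of Pdyn was 4.01, 4.59, 4.82 and 4.84. The difference, Pdyn minus Hcrt, was therefore -1.33, -0.70, -0.21 and 0.40. Its mean was -0.46 ± 0.73 (SD, n = 4), with p = 0.23 in a two-sided exact permutation test of 4 against 4 arrays, chosen after these values were seen. A p of this size does not show that the folds are equal.

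Penk, the enkephalin precursor, was measured well in both fractions. It stood at 9.12, 9.88, 10.62 and 8.78 on the log2 scale in the immunoprecipitates and at 10.29, 10.97, 11.79 and 10.76 in the unbound fractions (probe set 1427038_at). Replicate 3 was the highest array of each fraction, and the groups overlapped. Penk was 2.55-fold lower in the immunoprecipitate, a difference of -1.35 ± 0.43 on the log2 scale (SE, n = 4 each, limma adjusted p = 0.019).

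Within a preparation Penk was lower in 4 of 4 immunoprecipitates, by 2.25-, 2.13-, 2.24- and 3.95-fold. The first 3 preparations thus gave nearly 1 value, and the fourth a larger one. Relative to the median tested probe set the log2 fold change was -0.48. The call ended after median centring (log2 fold change -0.43, limma adjusted p = 0.41), after quantile normalization (-0.65, adjusted p = 0.22) and without immunoprecipitate replicate 4 (-0.97, adjusted p = 0.072). It also ended without both arrays of preparation 2 (-1.40, limma adjusted p = 0.069) or of preparation 4 (-1.05, adjusted p = 0.093).

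Pnoc, the nociceptin precursor, lay nearer the minimum. It stood at 5.83, 6.97, 6.63 and 4.75 on the log2 scale in the immunoprecipitates and at 6.96, 7.93, 7.69 and 7.64 in the unbound fractions (probe set 1425892_a_at). Immunoprecipitate replicate 4 was under the minimum, and the groups overlapped by a narrow margin, at replicate 2 of the immunoprecipitate and replicate 1 of the unbound fraction. The log2 fold change was -1.51 ± 0.46 (SE, n = 4 each, limma adjusted p = 0.016). With the low array raised to the minimum, Pnoc was at least 2.45-fold lower.

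The difference within a preparation was -1.13, -0.96, -1.06 and -2.89 on the log2 scale, lower in 4 of 4. Replicate 4 again stood apart from the other 3. Without immunoprecipitate replicate 4 the log2 fold change was -0.98 (limma adjusted p = 0.041) and missed 2-fold. Without both arrays of preparation 4 it was -0.96 (adjusted p = 0.074). The call also ended after median centring (-0.59, limma adjusted p = 0.29) and after quantile normalization (-0.32, adjusted p = 0.55).

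Oprl1, the nociceptin receptor, was the 1 receptor gene above the minimum. Its brightest probe set (1426204_a_at) stood at 10.73, 11.10, 10.77 and 10.93 on the log2 scale in the immunoprecipitates and at 11.05, 10.68, 10.79 and 11.04 in the unbound fractions. All 8 arrays lay within a narrow band, and the groups overlapped. The log2 fold change was -0.01 ± 0.18 (SE, n = 4 each), with a 95% interval from -0.40 to 0.39 (limma adjusted p = 0.97), and 1 of 4 preparations had the higher value in the immunoprecipitate.

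Oprl1 is a gene whose direction rests on the scale. It gave 0.92 after median centring (limma adjusted p = 0.0019) and 0.62 after quantile normalization (adjusted p = 0.016), both under 2-fold, and -1.97 on the poly-A controls (adjusted p = 1.5e-06), where it was called lower. Relative to the median tested probe set the log2 fold change was 0.87.

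A second Oprl1 probe set (1450486_a_at) was dimmer and more variable. It stood at 6.89, 8.03, 7.62 and 8.05 on the log2 scale in the immunoprecipitates and at 8.15, 6.67, 6.78 and 8.43 in the unbound fractions. Replicates 1 and 4 of the unbound fraction were high, and replicates 2 and 3 were low. Another Oprl1 probe set (1422099_a_at), under the minimum on all arrays, had the same pair of high and the same pair of low unbound arrays, with 4.89, 3.13, 3.11 and 4.35. The log2 fold change of the second probe set was 0.14 ± 0.46 (SE, limma adjusted p = 0.80), so that neither tested probe set of the gene passed the test. Its preparations gave -1.26, 1.36, 0.84 and -0.38, which do not share a sign.

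The other 3 receptors were left out of the test, because none of their probe sets reached the minimum on any array. Of all probe sets that are no controls, 55.5% were likewise under it on all 8 arrays. Oprm1, the mu receptor and the target of morphine, had 4 probe sets. All 4 held the lowest value of that group on all unbound arrays, as did 20.3% of all probe sets, and their values on the immunoprecipitates ran from 2.20 to 2.77 on the log2 scale. Of the 4, 2 held the lowest value of the immunoprecipitates on every array. The authors' table bottoms out at 2.21 for immunoprecipitate arrays and at 2.14 for unbound arrays, and values at these floors have no order between the groups.

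Oprd1, the delta receptor, had 1 probe set, at 2.29 to 2.31 on the log2 scale in the immunoprecipitates. In the unbound fractions it stood at 2.15 to 2.16 on 3 arrays and at 4.23 on replicate 3. Oprk1, the dynorphin receptor, had 2 probe sets (1446394_at and 1451813_at). The first stood at 2.25, 2.25, 2.40 and 2.25 in the immunoprecipitates and at 3.71, 2.88, 4.36 and 3.90 in the unbound fractions, with no overlap but under the minimum throughout. The second stood at 4.14, 4.33, 4.34 and 4.12 against 4.90, 3.85, 4.72 and 4.64, and its groups overlapped. Signal under the minimum does not show that a transcript is absent, and differences under it were fitted only as an alternative without the filter.

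**Figure D2:**
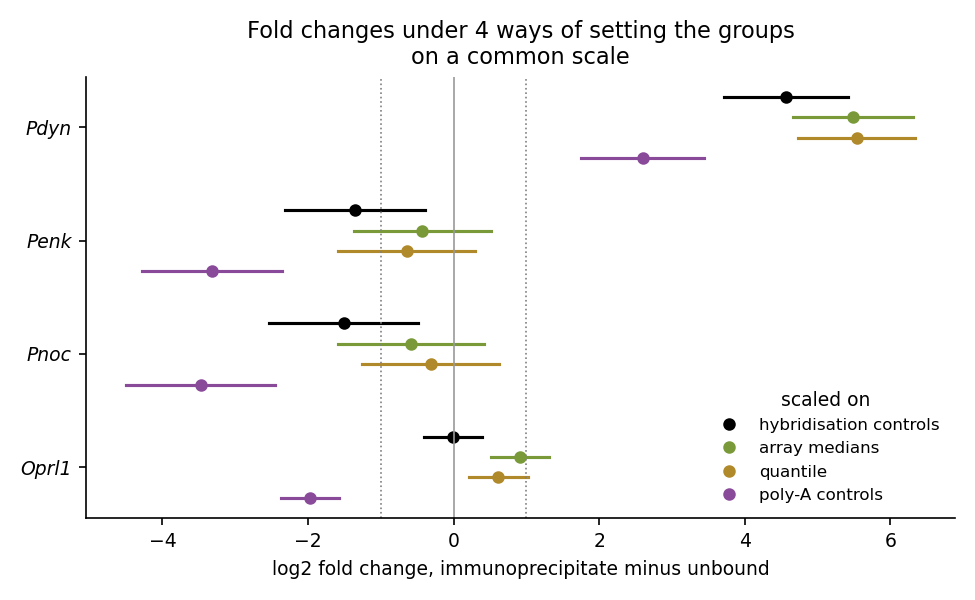
Log2 fold change (immunoprecipitate minus unbound, horizontal axis) of the 4 tested opioid genes with 95% intervals from limma, under 4 ways of placing the groups on a common scale; dotted lines mark 2-fold. Pdyn lies right of the 2-fold line on every scale, from 2.60 to 5.54, whereas Penk and Pnoc lie between -0.32 and -3.48 and Oprl1 between -1.97 and 0.92.

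Differences between 2 genes on the same array do not depend on the constant set between the groups, so the members were also compared with each other. All 6 pairs of the 4 tested genes were compared with a two-sided exact permutation test of 4 against 4 arrays, whose smallest p is 0.029, adjusted over the 6 pairs. The log2 fold change of Pdyn exceeded that of Penk by 5.92 ± 0.69 (SD over n = 4 preparations; exact permutation p = 0.029, adjusted p = 0.043). It exceeded that of Pnoc by 6.08 ± 1.14 and that of Oprl1 by 4.57 ± 0.38, with the same exact p and adjusted p. This test does not use the pairing of the fractions, and an exact sign-flip test over the 4 preparations gave p = 0.125, the smallest it can give. In 4 of 4 preparations Pdyn rose relative to each of the other 3 genes. After quantile normalization the differences were 6.18, 5.85 and 4.92. The exact permutation p of these pairs was still 0.029, and the adjusted p was 0.057. The adjusted p also depends on the other pairs, of which Pnoc against Oprl1 moved from an exact permutation p of 0.029 to 0.14.

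The log2 fold change of Pnoc was below that of Oprl1, its product's receptor, by -1.50 ± 0.89 (SD, n = 4; exact permutation p = 0.029, adjusted p = 0.043), in 4 of 4 preparations, and -0.93 with an adjusted p of 0.17 after quantile normalization. For Penk against Oprl1 the difference was -1.34 ± 0.44 (SD, n = 4; exact permutation p = 0.086, adjusted p = 0.10), also below 0 in 4 of 4. Penk and Pnoc were not told apart. Their difference was -0.04, -0.13, -0.10 and 0.91 in preparations 1 to 4 (mean 0.16 ± 0.50 SD, exact permutation p = 0.80, adjusted p = 0.80). After quantile normalization, which is not a constant shift, it turned to -0.33.

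**Figure D3:**
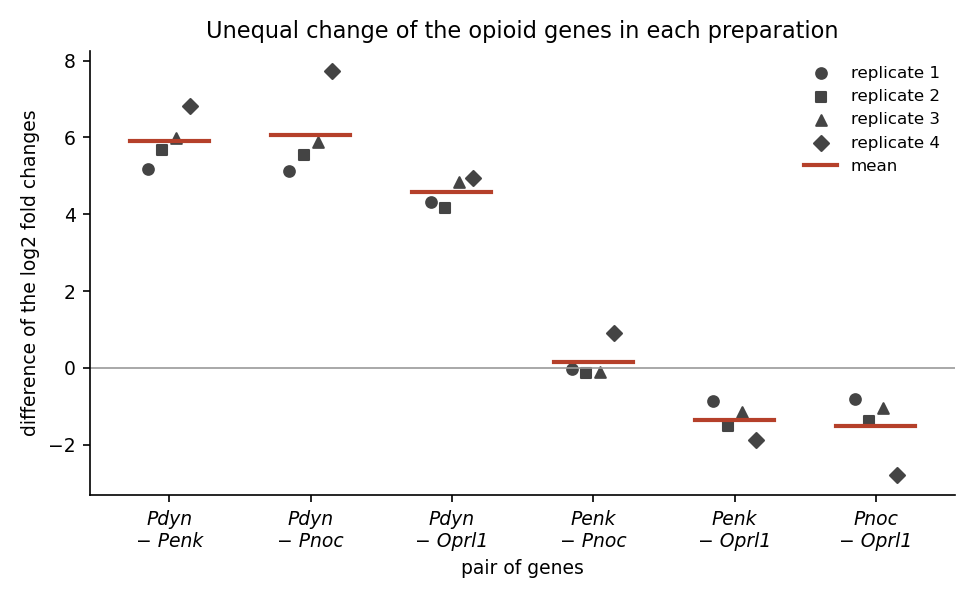
Difference of the log2 fold changes (immunoprecipitate minus unbound) for each pair of the 4 tested opioid genes (vertical axis), with a marker for each of the 4 preparations and a red bar for their mean. The 3 pairs that hold Pdyn lie between 4.17 and 7.73, and Penk minus Pnoc lies near 0 in 3 preparations and at 0.91 in replicate 4.

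Immunoprecipitate replicate 4 held the highest Pdyn and the lowest Penk and Pnoc values of the 4 pulldowns. The mean log2 level of each of 8 marker lists of other cells was also lowest on this array. GABAergic markers averaged 7.56 there and 8.26 to 8.66 on the other 3 immunoprecipitates (6 genes, all tested members lower in the immunoprecipitate), and astrocyte markers 6.52 against 7.12 to 8.38. Microglial markers averaged 4.78 against 6.04 to 6.59, and thalamic and habenular markers 7.34 against 8.61 to 9.24. The microglial mean of 4.78 lay under the minimum of 5.64. The list means include genes that reached the minimum on 0 of 4 immunoprecipitate arrays. These were Dlx2 (GABAergic), Lef1 (thalamic and habenular), C1qa and Tmem119 (microglial), and Cldn5 and Slco1a4 (endothelial and mural). On unbound replicates 1 to 4 the GABAergic markers averaged 10.57, 10.90, 11.00 and 11.24, highest on replicate 4. Unbound replicate 4 was instead lowest for astrocyte (9.99 against 10.11 to 10.21) and microglial markers (8.42 against 8.67 to 9.24). It was also lowest for thalamic and habenular (10.28 against 10.86 to 11.3) and for endothelial and mural markers (7.09 against 7.31 to 7.75). For the remaining lists it lay between the other unbound arrays.

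Hypocretin neuron markers averaged 12.64 on immunoprecipitate replicate 4 and 12.48 to 12.52 on the others. The same array had the largest gap between the 3′ and 5′ signal of Gapdh, 4.50 on the log2 scale against 2.12 to 2.31, and unbound replicate 4 likewise had 3.36 against 1.94 to 2.08. For Actb the gap ran from 3.14 to 4.11 in the immunoprecipitates and from 3.01 to 3.80 in the unbound fractions. The part of these levels in the values of Pdyn, Penk and Pnoc was not tested. Replicate 1, which had the highest mean of all 8 lists of other cells among the immunoprecipitates, deviated from the group mean by -0.48 for Penk and by -0.22 for Pnoc on the log2 scale.

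**Figure D4:**
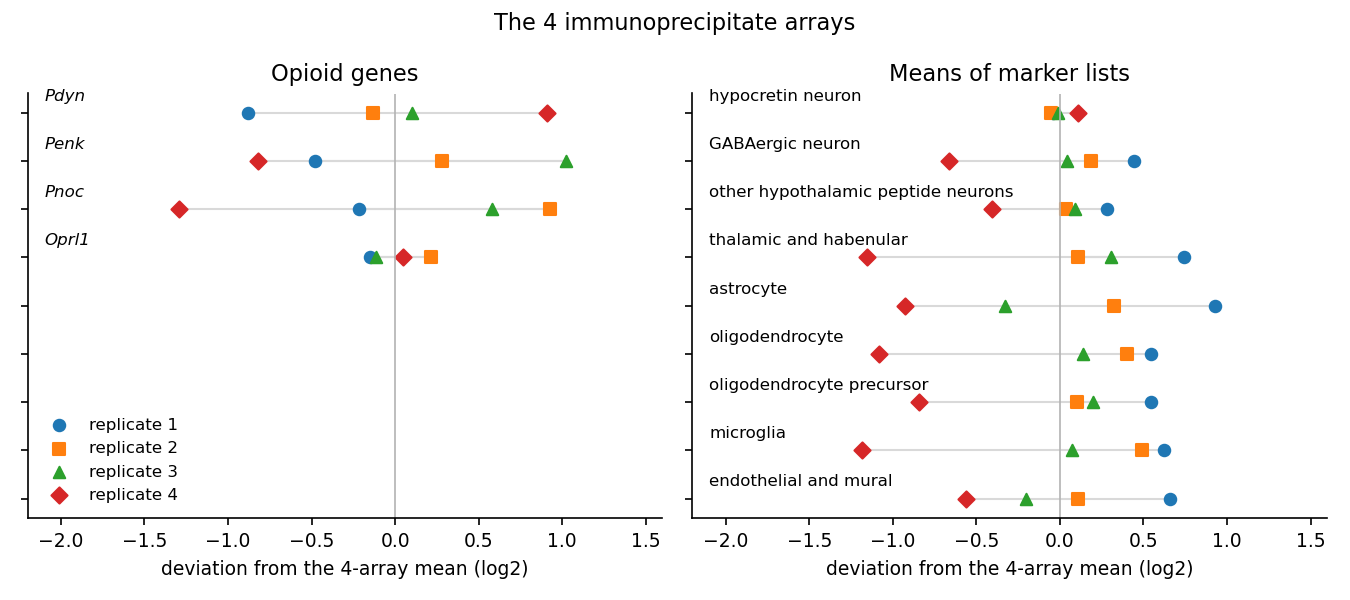
Deviation of each immunoprecipitate array from the mean of the 4 (log2, horizontal axis) for the 4 tested opioid genes (left) and for the mean level of each marker list (right), with a colour and shape per replicate. Replicate 4 (red diamond) is highest for Pdyn, at 0.91, lowest for Penk and Pnoc, at -0.82 and -1.29, and lowest for every list of other cells.

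Among all tested genes, those with the array profile most like that of Pdyn were B230216N24Rik, Stac and Crhr2. Likeness was the root mean square difference between log2 profiles centred on their own means over the 8 arrays, 0.26, 0.31 and 0.33 for these 3 genes, and it is set mostly by the step between the fractions. Stac encodes an adaptor of voltage-gated calcium channels and Crhr2 a receptor of the corticotropin-releasing hormone family. They rose by 4.42, 4.20 and 4.69 on the log2 scale (limma adjusted p = 9.8e-06, 1.5e-05 and 2.2e-06), and each was called higher on all 4 scales.

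Car11, Prag1 and Smg9 were most like Penk, with differences of 0.28, 0.29 and 0.29. Camk2b, a subunit of a calcium-dependent kinase of synapses, was nearest to Pnoc at 0.26, followed by the calcium channel gene Cacna1e at 0.28 and B3galt5 at 0.29. Pgam1, Eif5a and Ndn, with differences of 0.07, 0.10 and 0.12, were most like Oprl1. Pgam1 is an enzyme of glycolysis and Eif5a a translation factor. The genes nearest to Penk, Pnoc and Oprl1 gave log2 fold changes from -1.68 to 0.06 and, like the members, changed their calls with the scale. Prag1 also lost its call without immunoprecipitate replicate 4.

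The genes that act with the opioid peptides were taken from 6 lists. Of 8 tested genes that process peptide precursors, 3 were higher and 2 lower, or 37.5% and 25% against 4.74% and 44.2% of all genes. The median log2 fold change was 0.06 against -0.85 for all genes. Pcsk2 and Furin, also on this list, were not tested. Of the 3 higher genes, Pam could only be called higher, since it passed the filter through the immunoprecipitates alone. Without Pam, 2 of 7 were higher. The prohormone convertase Pcsk1, which makes the first cuts in precursors such as prodynorphin, rose 41.0-fold, by 5.36 ± 0.32 on the log2 scale (SE, limma adjusted p = 1.3e-06). It stood at 10.62, 11.46, 11.85 and 11.56 on the log2 scale in the immunoprecipitates, with replicate 1 lowest, as for Pdyn. Pam, which amidates peptide ends, reached the minimum on 0 of 4 unbound arrays and rose by at least 2.99-fold. The lysosomal protease Ctsl, singled out with its value known, rose 2.41-fold but gave -0.70 on the log2 scale with the poly-A controls.

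Pcsk5 and the carboxypeptidase Cpd were lower, Pcsk5 by at least 5.34-fold, with 3 of 4 immunoprecipitate arrays under the minimum, and Cpd by 5.21-fold. Cpe, which trims the C-termini of opioid peptides and was singled out with its value known, had a log2 fold change of -0.32 that did not pass the test. It gave 0.60 after median centring and was called lower on the poly-A controls (-2.29). Median centring gave this list 4 higher and 2 lower genes. Quantile normalization gave 3 and 2, and the poly-A controls 2 and 5.

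Of 9 tested peptidases that break down opioid peptides, 0 were higher and 4 lower (median log2 fold change -0.61, or -0.46 with bounds). The share lower, 44.4%, is that of all genes, 44.2%. Mme, which encodes neprilysin, a membrane enzyme that cleaves enkephalins, was at least 4.03-fold lower, with immunoprecipitate replicate 1 at 7.02 and the other 3 between 2.46 and 2.67. Nln, Ide and Npepps fell 4.19-, 3.76- and 2.26-fold. Nln encodes neurolysin, which cuts short neuropeptides, and Ide the insulin-degrading enzyme. Median centring ended the calls of Ide (log2 fold change -0.99, limma adjusted p = 0.0051) and Npepps (-0.25, adjusted p = 0.21). Quantile normalization ended those of Nln (-0.99, limma adjusted p = 0.0085) and Npepps (-0.61, adjusted p = 0.013). All but Npepps after median centring missed only 2-fold. Each of these scales left 2 lower genes in the list. Quantile normalization added 1 higher gene, and the poly-A controls made all 9 lower.

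Of 12 tested G protein subunits, 2 were higher and 1 lower, or 16.7% and 8.33% against 4.74% and 44.2% of all genes (median -0.07 against -0.85). Gnb4 rose 2.33-fold and Gnaz, an alpha subunit of the inhibitory class that opioid receptors use, 2.19-fold, but on the poly-A controls both gave values below 0, -0.74 and -0.84 on the log2 scale, and were not called. Without unbound replicate 3 Gnb4 lost its call, with limma adjusted p from 0.00073 to 0.13 over its alternatives. Gnai3, another inhibitory alpha subunit, fell 3.09-fold. It lost its call after median centring (-0.70, limma adjusted p = 0.069). After quantile normalization it missed only 2-fold (-0.88, adjusted p = 0.033). Median centring gave 6 higher and 0 lower subunits, quantile normalization 2 and 0, and the poly-A controls 0 and 10.

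Of 16 tested receptor regulators, 0 were higher and 6 lower, or 37.5% against 44.2% of all genes (median -0.81 against -0.85). Rgs17 and Rgs4, which speed the shut-off of G proteins, fell 4.59- and 3.47-fold. The receptor kinase Grk3 fell 4.20-fold, and Arrb1, an arrestin that uncouples phosphorylated receptors, 3.42-fold. Rgs4 lost its call after median centring (-0.87, limma adjusted p = 0.0020). Arrb1 lost its call there (-0.85, adjusted p = 0.037) and under quantile normalization (-0.97, adjusted p = 0.025). In each case only 2-fold was missed. Counts for this list were 3 higher and 2 lower with median centring, 3 and 3 with quantile normalization, and 0 and 16 with the poly-A controls.

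Of 11 tested receptor effectors, 1 was higher and 6 lower, or 54.5% against 44.2% of all genes (median -1.44 against -0.85). The adenylyl cyclases Adcy1, Adcy9 and Adcy5 fell 6.61-, 6.00- and 3.50-fold, and Kcnj3, a subunit of the potassium channels that these receptors open, 4.78-fold. Adcy5 lost its call after median centring, where it missed only 2-fold (-0.88, limma adjusted p = 0.022). Another cyclase, Adcy8, singled out with its value known, rose 2.52-fold but gave -0.63 on the log2 scale with the poly-A controls. Without unbound replicate 3 it lost its call, which left 0 higher effectors. Effector counts were 2 higher and 3 lower with median centring, 2 and 4 with quantile normalization, and 0 and 10 with the poly-A controls.

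Of 3 other genes named for opioids, Ogfrl1 fell 4.92-fold, a difference of -2.30 ± 0.39 on the log2 scale (SE, limma adjusted p = 0.00061). Ogfr, the opioid growth factor receptor, which binds an enkephalin but is no member of the receptor family above, gave 0.47 ± 0.25 (SE, limma adjusted p = 0.13). It was called higher after median centring (1.40) and quantile normalization (1.24) and lower on the poly-A controls (-1.49). Pomc, the precursor of beta-endorphin and singled out with its value known, averaged 9.57 in the pulldowns and 9.78 in the unbound fractions (log2). It missed the threshold (limma adjusted p = 0.45). Its log2 fold change was -0.21, turned to 0.71 with median centring and to 0.56 with quantile normalization, and was -2.18 and called lower on the poly-A controls.

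**Figure D5:**
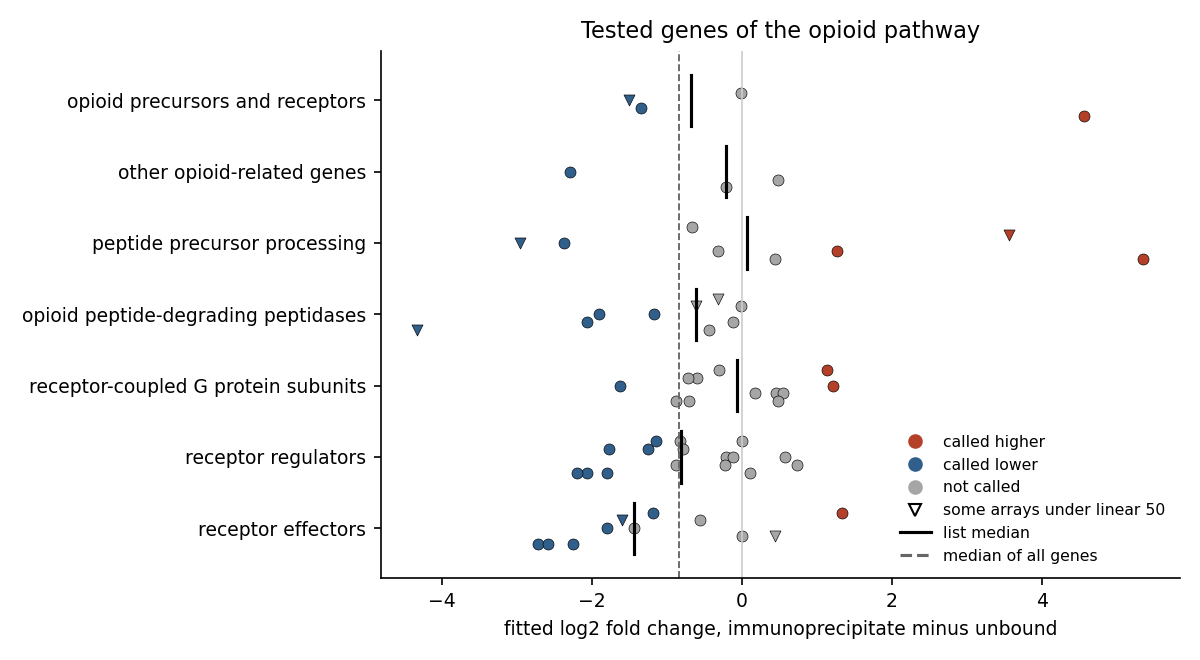
Fitted log2 fold change (immunoprecipitate minus unbound, horizontal axis) of each tested gene of the opioid pathway by list, red where called higher, blue where called lower and grey otherwise, with triangles for genes under a linear value of 50 on some arrays. The black bars are list medians, which run from -1.44 for effectors to 0.06 for precursor processing, and the dashed line is the median of all tested genes, -0.85.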

How the data were processed

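The authors deposited log2 expression values, 1 for each probe set on each array. The submitters' processing notes name GCRMA, which corrects background and normalizes Affymetrix data, and the design text says that it was run within each group and gives no version. Differences between groups thus rest on a later scale. Here 1 constant per group was subtracted so that the 18 hybridisation controls had equal means (0.02 apart on the log2 scale as deposited). Values not named as the authors' are on this shifted scale. The 64 control probe sets were left out. Probe sets that reached 50 (linear) on 4 or more arrays entered limma 3.58.1, run in R 4.3.3 with lmFit and a trended eBayes, without a block, and with Benjamini-Hochberg adjustment over all of them. A call needed an adjusted p under 0.05 and 2-fold. Symbols are those of GEO's platform annotation, and the brightest probe set on average stands for a gene. Folds given as at least had values under 50 raised to it. Pairs of genes were compared within arrays by exact permutation.

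Members, lists and tests were chosen with earlier results of these data known. Besides the members, the genes named are up to 4 called genes with the largest fold from each of 6 pathway lists, those with the highest mean where fewer than 2 were called, Hcrt, and the 3 most alike profiles; others are marked. Same-numbered fractions were taken as 1 preparation because their titles share a number. Within these pairs the arrays' deviations from their group had correlations of 0.46, 0.32, 0.28 and 0.58 over probe sets. Immunoprecipitate 2 with unbound 3 gave 0.26, and immunoprecipitate 3 with unbound 2 gave 0.25. All other unmatched arrays gave negative values. These correlations thus tell preparations 2 and 3 apart only weakly. The alternatives were other scales, filters, variance models and fold thresholds, the replicate block, averaging the probe sets of a gene, and leaving out arrays. The fit was tested on simulated data. Promoter sequences are from RefSeq (GRCm38.p6). The number of arrays limits the precision. Plots were drawn with matplotlib 3.10.9.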

Additional observations from a re-analysis of the deposited data

How the results depend on the processing

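The rise of Pdyn kept its call under all 21 alternatives that left the 2-fold threshold in place, with log2 fold changes from 2.60 to 5.54 and adjusted p up to 0.00054 (limma). Leaving out 1 array, or both arrays of a preparation (chosen after seeing the data), moved it between 4.29 and 4.80. Penk kept its call under 16 and Pnoc under 17 of the same 21 alternatives, with limma adjusted p from 2.4e-05 to 0.41 and from 2.8e-05 to 0.55. Of the 2 member genes called lower, 0 remained after median centring (Penk -0.43, Pnoc -0.59), after quantile normalization (-0.65 and -0.32) and at a 4-fold threshold, and between 0 and 2 when arrays were left out. With arrays left out Penk ran from -1.73 to -0.97 and Pnoc from -1.84 to -0.96; the 2 lost their calls without immunoprecipitate replicate 4 and without preparation 4, and Penk also without preparation 2 (-1.40). Oprl1 changed sign with no shift (0.014), median centring (0.92), quantile normalization (0.62) and the mean of its probe sets (0.066), ran from -0.19 to 0.23 with arrays left out, and was called lower on the poly-A controls (-1.97). On unbound arrays the poly-A controls averaged between 7.17 and 10.55. For Oprk1, Oprm1 and Oprd1 a fold was fitted only without the filter.

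With the replicate block the adjusted p was 1.3e-05 for Pdyn, 0.00039 for Penk, 0.0051 for Pnoc and 0.97 for Oprl1 (limma), and no member's call changed. For Pdyn against Penk, Pnoc and Oprl1 and for Pnoc against Oprl1, quantile normalization gave 6.18, 5.85, 4.92 and -0.93. The mean of probe sets gave 5.92, 6.08, 4.50 and -1.58. In both settings the exact permutation p of the pairs with Pdyn stayed at 0.029, with an adjusted p of 0.057. For Pnoc against Oprl1 the exact permutation p was 0.14 and 0.086, with an adjusted p of 0.17 and 0.13. Penk against Pnoc turned to -0.33 after quantile normalization. With 1 array left out, these differences were not tested. With no filter on low values, the first Oprk1 probe set gave -1.42 and was called lower (limma adjusted p = 0.0039), with both groups under the minimum. Of the Oprm1 probe sets, 2 gave 0.04 between the floors of the groups (adjusted p = 7.6e-12), and 1 gave 0.62 with the same value on all arrays of a group (adjusted p = 1.2e-13); all were under 2-fold. The cause of the other changes was not tested.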
